A study of Mus musculus with 5 samples.

Results

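The cells described here are macrophages of tibialis anterior, a hind-limb muscle, that carry complement C1q transcripts together with transcripts of tissue-resident macrophages. A retained barcode had at least 200 detected genes and at most 10% of its unique molecular identifiers (UMIs, 1 per captured transcript) from mitochondrial genes. A member had at least 5 UMIs in total of C1qa, C1qb and C1qc, at least 1 UMI of each of 2 or more of the resident genes Cd163, Folr2, Pf4, Mrc1 and F13a1, and at most 2 UMIs in total of Cdh5, Pdgfra and Rgs5, which mark endothelial, fibro-adipogenic and mural cells. Members were therefore chosen by their measured counts of these genes. There were 1898 members among 50460 retained barcodes, and the files held 56922 barcodes.

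All animals were female C57BL/6 mice aged 26 months. The frail group had a frailty index of 0.18 or more and gave 2 libraries, and the control group had an index under 0.18 and gave 3 libraries. Both groups were thus old, and the labels name no agent, transgene or deletion. The series text describes digestion of the muscle to whole cells, while the sample protocol describes lysis and sorted nuclei. Which of them was done could not be settled here, and the barcodes are called cells. Members numbered 192 in frail 1 and 296 in frail 2, and 560, 416 and 434 in control 1 to 3, the library order used throughout. Member cells had a median of 8166 and 7343 UMIs in frail libraries and of 8926, 8280.5 and 6651.5 in control libraries. None of the member barcodes of one library was also a member in another.

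Resident macrophages lie along vessels, nerves and connective tissue of skeletal muscle, where they take up dead cells and debris and secrete complement and growth factors. They depend on Csf1r signalling. Cells that carry Lyve1 and Folr2 are commonly set apart from cells rich in MHC class II, which present antigen, and from Ccr2 cells, which are commonly traced to blood monocytes. C1q is the recognition part of the classical complement pathway and is made largely by macrophages.

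The C1q genes lie next to each other on the minus strand of chromosome 4 (GRCm38), C1qa at 136895917 to 136898803, C1qc at 136889804 to 136893065 and C1qb at 136880129 to 136886187. RefSeq's promoter table (GRCm38.p6) held 7 of the 8 genes that admit a cell, all but C1qa, and the 250 bases before the start are shown for 4 of them. C1qb (chr4:136886201-136886450, minus strand) and C1qc (chr4:136892915-136893164, minus strand) are shown because their transcripts were, with each other, the ones most like C1qa among member cells. F13a1 (chr13:37050245-37050494, minus strand) and Folr2 (chr7:101857191-101857440, minus strand) are shown because they were the genes most like Lyve1. Capitals mark GAGGAA or its reverse complement TTCCTC, the core of the site of the myeloid factor PU.1, searched on both strands.
C1qb: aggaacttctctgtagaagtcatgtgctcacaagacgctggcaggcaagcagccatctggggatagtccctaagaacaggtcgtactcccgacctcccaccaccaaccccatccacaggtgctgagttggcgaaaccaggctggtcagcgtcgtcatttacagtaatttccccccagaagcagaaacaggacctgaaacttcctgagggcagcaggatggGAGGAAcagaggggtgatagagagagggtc
C1qc: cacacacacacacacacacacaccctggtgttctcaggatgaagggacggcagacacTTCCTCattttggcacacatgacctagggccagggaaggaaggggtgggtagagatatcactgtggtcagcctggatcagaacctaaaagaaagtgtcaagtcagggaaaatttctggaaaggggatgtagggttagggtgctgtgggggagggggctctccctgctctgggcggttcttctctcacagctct
F13a1: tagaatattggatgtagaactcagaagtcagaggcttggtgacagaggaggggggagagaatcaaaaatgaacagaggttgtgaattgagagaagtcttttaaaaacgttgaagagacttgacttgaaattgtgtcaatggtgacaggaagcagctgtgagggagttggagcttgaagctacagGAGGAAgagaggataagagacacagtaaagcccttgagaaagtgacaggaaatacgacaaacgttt
Folr2: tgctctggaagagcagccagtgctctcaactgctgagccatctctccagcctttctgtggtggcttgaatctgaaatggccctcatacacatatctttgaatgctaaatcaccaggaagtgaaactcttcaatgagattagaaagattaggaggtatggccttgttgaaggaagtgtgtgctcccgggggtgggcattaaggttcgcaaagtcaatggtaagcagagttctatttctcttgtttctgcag
The motif was present in 5 of the 7 promoters, those of C1qb, C1qc, Pf4, Mrc1 and F13a1, and these letters are not in the windows of Cd163 and Folr2. In the table as a whole, 7639 of 32851 promoters (23.25%) hold it in the same window. A match describes the letters and is not a binding site.

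Levels are given as plain CPM, a gene's part of all UMIs of the same cells of a library, with no further scaling. C1qa stood at 5084 and 4479 plain CPM in frail members and at 5473, 5364 and 4192 in control members, and between 55.0 and 95.3 in all other retained cells. Cd163, the haemoglobin scavenger receptor, stood at 884 plain CPM in frail 1 and 1347.5 in frail 2, and at 1212, 1298.5 and 948 in control members. Pf4, a chemokine known from platelets, stood at 3982 and 3737 plain CPM in frail members and at 3999, 3835 and 3695 in control members. For C1qa and Pf4 the groups overlapped, and for Cd163 one frail library lay below and the other above every control library.

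Folr2, a folate receptor, stood at 558 and 531 plain CPM in frail members and at 894, 766 and 581 in control members. Mrc1, the mannose receptor, stood at 1080 and 1240 plain CPM in frail members and at 1411, 1467.5 and 1345 in control members. F13a1, the catalytic subunit of coagulation factor XIII, stood at 1327 and 1567 plain CPM in frail members and at 1856, 1921 and 1874.5 in control members. For these 3 of the 8 genes both frail libraries were below every control library, which was so for 9.32% of all 11807 genes tested. Since the rule used detection of these genes, their levels are a description with no test.

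Among genes with at least 50 plain CPM in members of every library, the 15 with the highest median ratio over the rest were the 8 rule genes and Mucl1, Cd209f, Ms4a7, C3ar1, Clec10a, Cd209b and Cd209d. These ratios describe the cells and were not tested, since the same cells were chosen by their counts. Cd209f, Cd209b, Cd209d and Clec10a encode C-type lectins, which bind sugars. Cd209f stood at 607 and 347 plain CPM in frail members and at 759, 648 and 383 in control members, against 5.57 to 15.8 in the rest. C3ar1, the receptor of the complement fragment C3a, stood at 203 and 342 plain CPM in frail members and at 300.1, 414 and 360 in control members. Mucl1, a mucin-like gene, had the highest ratio, a median log2 of 6.99. Its level was 214 and 101 plain CPM in frail members and 279, 339 and 172 in control members.

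**Figure D1:**
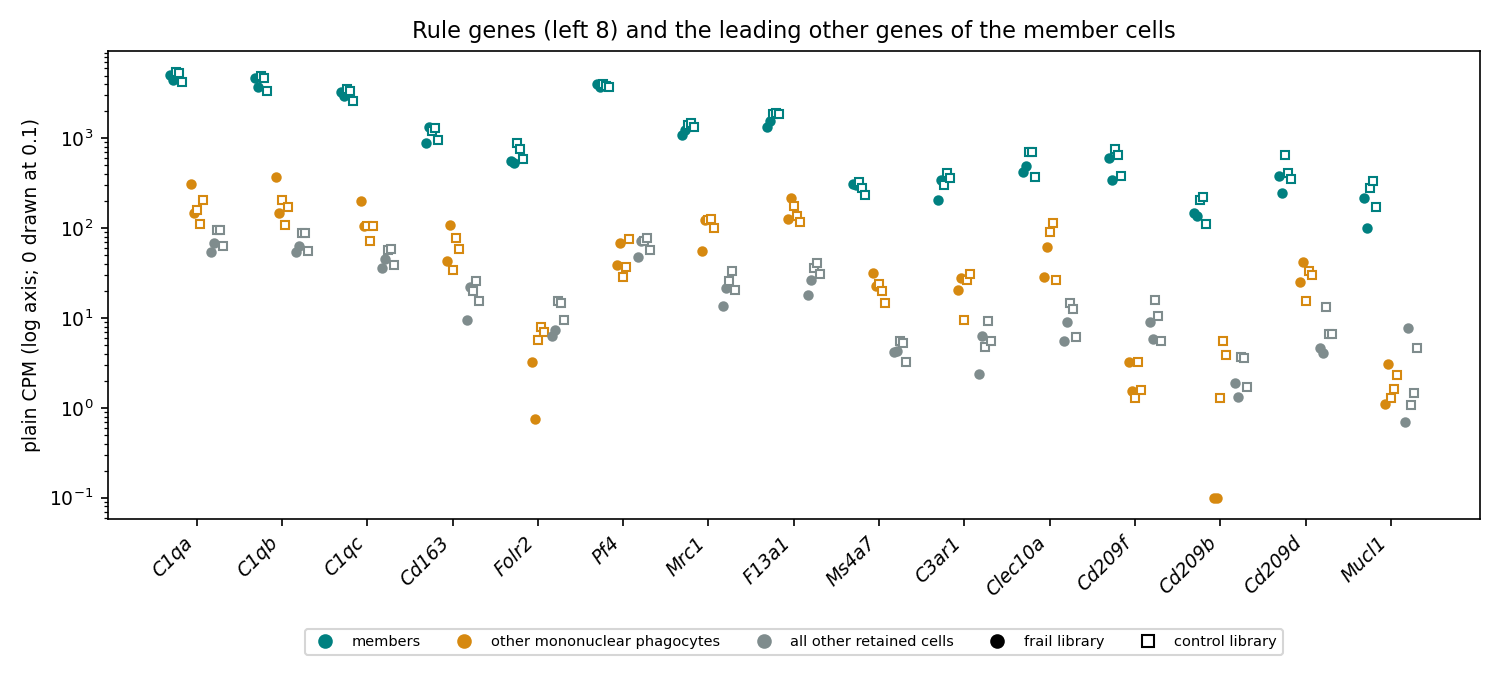
Plain CPM (log axis) of the 8 rule genes and the 7 other leading genes in each library, in members (teal), other mononuclear phagocytes (orange) and all other retained cells (grey), with filled circles for frail and open squares for control libraries. In members C1qa lay between 4192 and 5473 and in all other retained cells between 55.0 and 95.3.

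Genes of the macrophage core, which the rule did not use, were present throughout. Csf1r, the receptor of the macrophage growth factor, stood at 764 and 1419.5 plain CPM in frail members and at 1096, 1252 and 903 in control members. Lyz2, a lysozyme gene, stood at 10482 and 13856 plain CPM in frail members and at 13247, 11989 and 7001 in control members. Both genes overlapped between the groups. The 5 markers of T and NK cells summed to 1.15 and 15.9 plain CPM in frail members and to 0.749, 1.09 and 15.7 in control members, and the dendritic cell receptor Flt3 was at 1.72 and 3.77 in frail members and at 1.12, 6.02 and 1.60 in control members. Other markers of immune cells were present. Cd209a, a lectin listed for dendritic cells, stood at 98.2 and 99.2 plain CPM in frail members and at 231, 142 and 119 in control members, with a median log2 of 4.09 over the rest. The 5 monocyte markers, Ccr2 among them, summed to 164 and 263 in frail members and to 333, 283 and 276 in control members. The 4 neutrophil markers summed to 353 and 30.1 in frail members and to 324, 38.8 and 34.6 in control members, so frail 1 and control 1 stood apart. S100a8, a neutrophil gene, was at 208 and 1.67 in frail members and at 144, 7.93 and 9.29 in control members.

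The limits of the rule admit a spread of cells. Over the 5 libraries, the 30 members with 5 or 6 C1q UMIs had a median of 2085 UMIs, and the 42 barcodes with 3 or 4 that met the other conditions had 9150. The 115 members with exactly 2 of the 5 resident genes had 549 plain CPM of Csf1r, and the 52 barcodes with 1 had 319. The 245 members with 2 UMIs of the endothelial, fibro-adipogenic and mural genes had 3788.5 plain CPM of Pf4, and the 114 barcodes with 3 such UMIs had 2711. All 5 resident genes were detected in 51.6% and 56.1% of frail members and in 63.6%, 61.5% and 54.4% of control members. Scrublet, a doublet caller, marked 5.21% and 2.36% of frail members and 4.29%, 4.33% and 5.99% of control members.

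Members were not uniform, and Lyve1 and MHC class II ran in opposite directions among them. Lyve1, a hyaluronan receptor outside the rule, was compared with other genes in cells thinned to 2000 UMIs each, which left out 14 and 14 shallower frail members and 10, 10 and 32 control members. Over 2043 genes detected in at least 10% of members, the genes most like Lyve1 by Spearman correlation across cells, as the median of the 5 libraries, were F13a1 (0.63), Folr2 (0.60), Selenop (0.56), Cd209f (0.52) and Maf (0.50). H2-Ab1, the beta chain of an MHC class II molecule, was most like Cd74 (0.90), H2-Aa (0.89), H2-Eb1 (0.88), Cd52 (0.50) and H2-DMa (0.48). Lyve1 and H2-Ab1 ran against each other, at -0.51. C1qa was most like C1qc and C1qb (0.47 each). Cells of a library share its preparation and depth was made equal, so these values are descriptions with no test.

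H2-Aa, H2-Ab1, H2-Eb1 and Cd74, the chains and the chaperone of MHC class II, together gave 57.7 and 22.1 UMIs per cell in frail members with a Lyve1 UMI, and 36.9, 28.3 and 34.4 in such control members. In members without a Lyve1 UMI the sum was 107 and 73.6 in frail libraries and 89.4, 95.2 and 77.1 in control libraries. The level without Lyve1 was 1.85 and 3.34 times that with Lyve1 in frail members, and 2.42, 3.36 and 2.24 times in control members. The direction was the same in each of the 5 libraries.

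**Figure D2:**
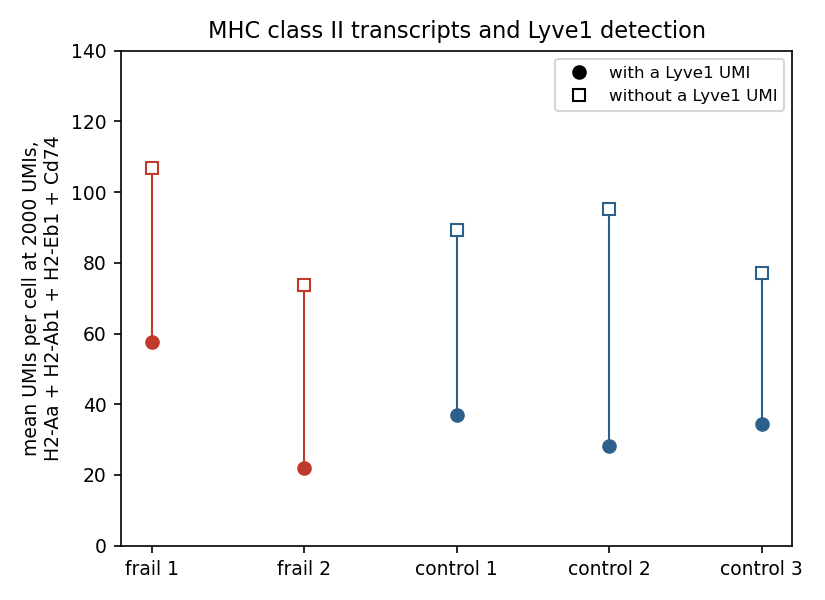
Mean UMIs per cell of H2-Aa, H2-Ab1, H2-Eb1 and Cd74 together in members thinned to 2000 UMIs, for cells with a Lyve1 UMI (filled circles) and without one (open squares), frail libraries in red at the left and control libraries in blue. Cells without Lyve1 lie at 73.6 to 107 and cells with it at 22.1 to 57.7, with the open symbol higher in each library.

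Cells with Lyve1 held more of the lectins Cd209f, Cd209d, Cd209b and Clec10a, of complement C4b and of Timd4. The lectin Clec7a went the other way over all UMIs of these cells. Its plain CPM with Lyve1 was 19.5 and 98.2 in frail and 23.1, 25.3 and 37.8 in control libraries. Without Lyve1 it was 150 and 139 in frail and 137, 128 and 118 in control libraries. Fcna, ficolin A of the lectin pathway of complement, stood in cells with Lyve1 at 267 and 299 plain CPM in frail members and at 436, 425 and 276 in control libraries, and in cells without it at 22.7 and 87.4 in frail and at 82.5, 10.9 and 19.7 in control libraries. Timd4, a phosphatidylserine receptor that serves uptake of dead cells, stood in cells with Lyve1 at 83.3 and 129.5 plain CPM in frail members and at 141, 153 and 86.0 in control libraries. In cells without Lyve1 it stood at 5.68 and 28.0 in frail and at 11.8, 21.7 and 9.87 in control libraries. Igf1, a growth factor for muscle, and Gas6, a bridge to dead cells, were also higher with Lyve1 in all 5 libraries, by a median log2 of 1.46 and 1.82.

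Cells without Lyve1 held more Il1b, Ccr2, Lyz1, Fn1 and Cd52. Il1b, an inflammatory cytokine, stood in cells without Lyve1 at 369 and 231 plain CPM in frail members and at 675, 1264.5 and 339 in control libraries, and in cells with it at 55.6 and 43.2 in frail and at 37.0, 78.4 and 6.00 in control libraries. Ccr2, the chemokine receptor of inflammatory monocytes, was detected in 26.1% and 30.8% of frail members without Lyve1 and in 44.3%, 39.1% and 42.8% of such control members. With Lyve1 it was detected in 2.22% and 5.76% of frail and in 5.92%, 1.49% and 8.40% of control members. Mucl1 was uneven: its level with Lyve1 was 122 and 3.60 plain CPM in frail members and 143, 5.60 and 2.00 in control libraries, and without Lyve1 it was 102 and 119 in frail and 377, 1003.6 and 444 in control libraries.

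The label by Cd163 and Folr2 described the cells with Lyve1 more closely than those without. Folr2 was detected in 78.9% and 74.1% of frail and in 87.0%, 82.5% and 74.8% of control members with Lyve1. Without Lyve1 it was detected in 18.2% and 25.2% of frail and in 25.0%, 12.3% and 16.4% of control members. Cd163 was detected in 46.6% and 51.0% of frail and in 44.3%, 38.4% and 38.2% of control members without Lyve1. C1qa was detected in 90.9% to 95.1% of members without Lyve1. The rule therefore takes in C1q cells rich in MHC class II, Ccr2 and Il1b beside the Lyve1 and Folr2 cells, and the name resident is not borne out for all of them by these markers.

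Members made up a smaller share of the retained cells in each frail library than in each control library, but the difference did not pass a test. They were 2.05% (95% Wilson interval 1.78 to 2.36) and 2.81% (2.52 to 3.15) of retained cells in frail libraries, and 6.47% (5.97 to 7.01), 4.22% (3.84 to 4.64) and 3.59% (3.27 to 3.94) in control libraries. The means were 2.43% ± 0.538 (SD, n = 2) in frail and 4.76% ± 1.52 (SD, n = 3) in control libraries, with an exact two-sided permutation p of 0.2 where 0.1 is the smallest that 2 against 3 libraries allow. A fit of the cell numbers with edgeR gave a log2 change of -0.96 (edgeR adjusted p = 0.146 over 3 classes of cells). Intervals cover counting error only.

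The share cannot tell fewer macrophages from more of other cells. Members were also set against other mononuclear phagocytes, retained non-members with at least 5 UMIs in total of Tyrobp, Fcer1g, Lyz2 and Ctss. Those cells had no UMI of Cpa3, Cd3e, Cd3d, Cd3g, Nkg7 and Cd79a, which mark mast cells and lymphocytes. Members were 59.6% and 67.9% of both sets together in frail libraries and 82.4%, 76.1% and 70.3% in control libraries. The exact p was again 0.2. These other phagocytes numbered 130 and 140 in frail libraries and 120, 131 and 183 in control libraries. The retained share of barcodes was 82.0% in frail 1 and 88.3% to 91.8% in the other libraries, and its part in the share of members was not tested.

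**Figure D3:**
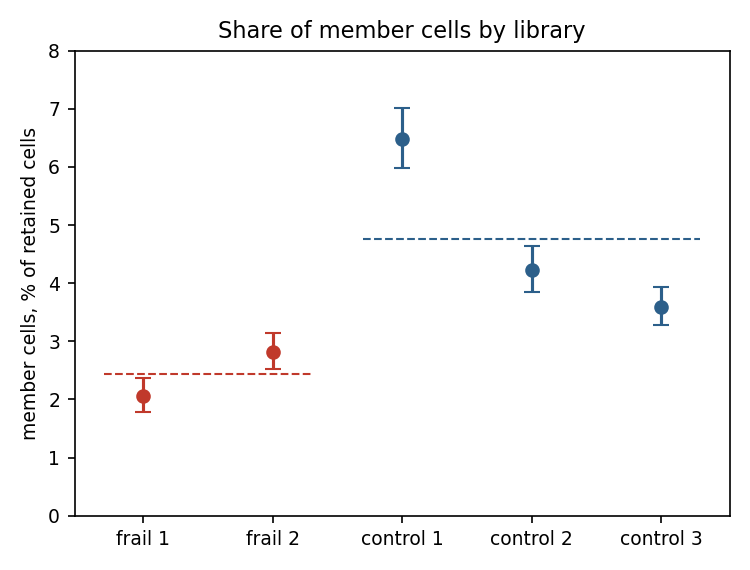
Members as a percentage of retained cells in each library, frail in red at the left and control in blue, with 95% Wilson intervals as bars and the group mean as a dashed line. The frail libraries lie at 2.05% and 2.81% and the control libraries at 3.59% to 6.47%.

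Within members, Lyve1 was detected in fewer cells of the frail libraries. At 2000 UMIs per cell it was found in 50.6% and 49.3% of frail members and in 61.5%, 66.0% and 62.2% of control members, a mean of 49.9% ± 0.899 (SD, n = 2) against 63.2% ± 2.45 (SD, n = 3). The groups did not overlap, and the exact permutation p was 0.1, the smallest possible, with an adjusted p of 0.35 over 7 genes. Without thinning the shares were 57.8% and 62.5% in frail and 71.2%, 71.4% and 68.9% in control members. In cells of the same libraries with 3 or more Pdgfra UMIs and none of Cdh5 and Rgs5, which should lack Lyve1, the share at 2000 UMIs was 0.424% and 0.399% in frail and 1.23%, 1.24% and 1.53% in control libraries, with median depths of 7633 to 8927 UMIs against 6651.5 to 8926 in members. Lyve1 stood at 755 and 734 plain CPM in frail members and at 1054, 1435.5 and 1040 in control members, a fitted 1.57-fold lower level (log2 -0.65, SE 0.25) that missed the threshold (unadjusted p = 0.0274, edgeR adjusted p = 1.00).

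Trem2, a lipid-sensing receptor, was detected in 23.0% and 20.9% of frail and in 19.1%, 18.5% and 18.4% of control members at 2000 UMIs, with an exact permutation p of 0.1 and an adjusted p of 0.35. Without thinning the order was lost, with 45.3% and 39.9% in frail and 49.3%, 42.5% and 36.4% in control members. Timd4 was detected in 7.87% and 12.1% of frail and in 13.5%, 16.3% and 9.20% of control members, with overlapping groups.

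H2-Ab1 was detected in 93.3% and 75.2% of frail and in 87.1%, 81.8% and 86.1% of control members, so that the frail libraries held both the highest and the lowest share. Ccr2 was detected in 14.0% and 18.4% of frail and in 20.7%, 14.3% and 21.4% of control members. Cd9, a tetraspanin, was detected in 11.8% and 15.2% of frail and in 6.36%, 7.14% and 10.7% of control members, but 59.3% to 71.3% of the Pdgfra cells carried it, so those cells give no background level for it. Mki67, a gene of cycling cells, was found in 1.69% and 0.709% of frail and in 1.09%, 1.48% and 1.99% of control members. Exact permutation p for these genes and Timd4 lay between 0.2 and 0.9.

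**Figure D4:**
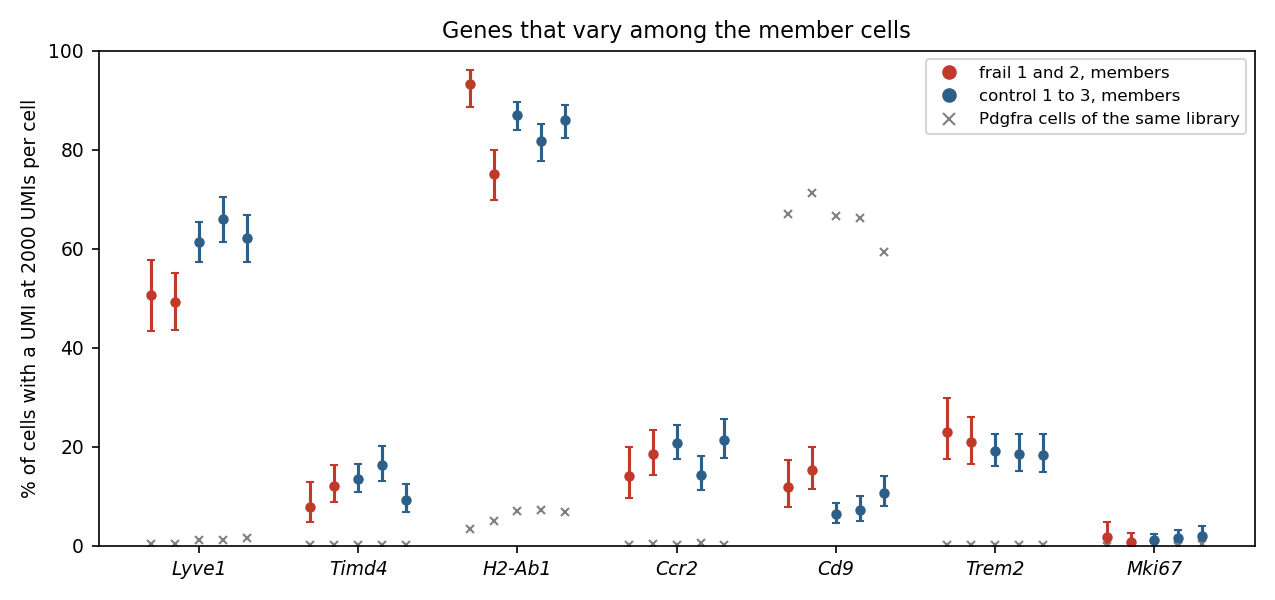
Percentage of members with a UMI of each gene after thinning to 2000 UMIs per cell, by library, frail in red at the left of each gene and control in blue, with 95% Wilson intervals; grey crosses give the share in Pdgfra cells of the same library. Lyve1 lies at 49.3% to 50.6% in frail and at 61.5% to 66.0% in control members, and the Cd9 crosses lie far above the member values.

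UMIs of the members were summed per library, 1741147 and 2388912 in the frail and 5337628, 3656445 and 3121822 in the control libraries, and tested for frail against control. edgeR called 0 of 11807 genes (0%) at an adjusted p of 0.05, 472 (4%) had an unadjusted p under 0.05, of which 186 were higher (1.58%) and 286 lower (2.42%) in frail, and DESeq2 called 21 (0.178%), 1 higher (0.00847%) and 20 lower (0.169%). Frail and control libraries did not overlap for 2035 genes (17.2%), 935 higher (7.92%) and 1100 lower (9.32%). The edgeR count was 82 with no filter on low counts, 23 without control 2 and 7 without frail 1. None of the genes named from this comparison passed edgeR's adjusted threshold. They are the 10 of smallest p in each direction among genes with an average log2 CPM of at least 4 and groups that do not overlap, and their values are descriptions of these 5 libraries. The gene that DESeq2 called higher was Aldh1l1, an enzyme of folate metabolism, named after its values were seen since its average log2 CPM was 2.95. Its level was 16.1 and 17.6 plain CPM in frail members and 0.937, 3.56 and 2.56 in control members (log2 2.90, SE 0.47, DESeq2 adjusted p = 0.00395, edgeR adjusted p = 0.458), and its level in members was below that in the rest by a median log2 of -1.25. The libraries are described as separate mice.

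The 10 higher genes in frail members were Dgkz, Rcbtb2, Pou2f2, Cd300c2, Cdkn1b, Wdr91, Cfap45, Mbp, Clec7a and Tm4sf1, with fitted folds of 1.51 to 1.95 and edgeR adjusted p from 0.806 to 1.00. Pou2f2, a POU-domain transcription factor also known from B cells, stood at 107 and 145 plain CPM in frail members and at 68.2, 56.1 and 93.2 in control members (log2 0.82, SE 0.22). Cd300c2, an activating receptor of myeloid cells, stood at 106 and 109 plain CPM in frail members and at 74.0, 67.0 and 58.0 in control members (log2 0.70, SE 0.20). Clec7a, the beta-glucan receptor of macrophages, stood at 86.7 and 121 plain CPM in frail members and at 70.8, 63.2 and 71.1 in control members (log2 0.61, SE 0.19). These 3 genes were higher in members than in the rest, by a median log2 of 3.56 to 4.05. That both frail libraries lay above every control library was a condition of naming them. Over other mononuclear phagocytes alone the median log2 was 0.13 for Pou2f2, -0.31 for Cd300c2 and -0.50 for Clec7a.

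Dgkz, a kinase that removes diacylglycerol, stood at 56.3 and 69.5 plain CPM in frail members and at 32.2, 38.6 and 37.2 in control members (log2 0.82, SE 0.19). Cdkn1b, an inhibitor of cyclin-dependent kinases, stood at 68.9 and 78.3 plain CPM in frail members and at 40.1, 44.9 and 55.7 in control members (log2 0.67, SE 0.19). In the rest Cdkn1b was also higher, at 98.4 and 116 plain CPM in frail libraries and at 64.6, 67.4 and 79.2 in control libraries. Tm4sf1, a membrane protein of endothelial cells, was lower in members than in the rest, with 49.4 and 27.2 plain CPM in frail members against 16.1, 21.6 and 22.1 in control members.

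Of the 10 lower genes, Il1rn was the one with a level well above the rest (median log2 of 3.02). Over other mononuclear phagocytes alone its median log2 was 0.255 (-0.157 to 0.832 over the libraries). In those phagocytes it was also lower in frail, at 7.63 and 22.0 plain CPM against 48.0, 38.4 and 32.9 in control libraries. Il1rn, the antagonist of the interleukin 1 receptor, stood at 14.4 and 20.5 plain CPM in frail members and at 42.9, 53.1 and 39.4 in control members, a fitted 2.57-fold lower level (log2 -1.36, SE 0.25), with an edgeR adjusted p of 0.458 and a DESeq2 adjusted p of 0.0380. Slc5a3, an inositol transporter, stood at 28.7 and 28.0 plain CPM in frail members and at 45.9, 64.3 and 79.1 in control members (log2 -1.13, SE 0.25, edgeR adjusted p = 0.717).

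The other lower genes are known from other cells. Pi16, a gene of fibroblasts, stood at 27.6 and 33.9 plain CPM in frail members and at 106, 63.2 and 126 in control members (log2 -1.66, SE 0.28, edgeR adjusted p = 0.458), and over all other cells at 338 and 409 in frail against 885, 527 and 612 in control libraries. Gfpt2, Heg1 and Has1 were likewise lower in members than in the rest, by a median log2 of -3.14, -3.60 and -3.45. Mb, myoglobin of muscle fibres, stood at 1.72 and 6.70 plain CPM in frail members and at 28.7, 56.3 and 33.6 in control members, and over all other cells at 3.38 and 11.8 in frail and at 155, 302 and 83.6 in control libraries. Eno3, Cox6a2 and Cox8b are also fibre genes.

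The members' sums therefore held transcripts that other cells make in greater amounts. The summed myofibre and Schwann markers did not overlap between the groups, and the summed fibro-adipogenic, endothelial, mural and haemoglobin markers did. The 10 myofibre markers summed to 115 and 180 plain CPM in frail members and to 1047, 3332.5 and 770 in control members, while all other cells had 119 and 782 in frail libraries against 7236, 13720 and 3431 in control libraries. All 10 were below every control library in both frail libraries, which was so for 9.32% of all genes tested. The 5 fibro-adipogenic markers summed to 1086 and 1619 plain CPM in frail members and to 1572, 1587 and 3152 in control members. The 4 Schwann markers summed to 289 and 110 in frail members and to 79.4, 55.2 and 60.9 in control members. The 5 endothelial markers summed to 105 and 150 in frail members and to 69.1, 97.4 and 108 in control members. The 5 mural markers summed to 1188 and 104 in frail members and to 469, 398 and 630 in control members, and the 4 haemoglobin genes to 564 and 99.6 in frail members and to 77.2, 1727 and 364 in control members. Krt5 and Krt14, genes of skin, were at 0 in members of 4 libraries and summed to 318 plain CPM in control 3, where the rest had 747.5. Of the 20 genes that DESeq2 called lower, 18 were at least 2-fold lower in members than in the rest, and the other 2 were Il1rn and Chil3. The part of these transcripts in the comparison was not tested.

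Split by level, the 1870 tested genes at least 2-fold lower in members than in the rest had an unadjusted p under 0.05 in 8.13% of cases, 35 higher and 117 lower in frail. The 1608 genes at least 2-fold higher in members had one in 6.09%, 47 higher and 51 lower. Among the 8329 genes between, the share was 2.67%. The median change was 0.02 on the log2 scale for the genes higher in members and -0.07 for those lower.

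**Figure D5:**
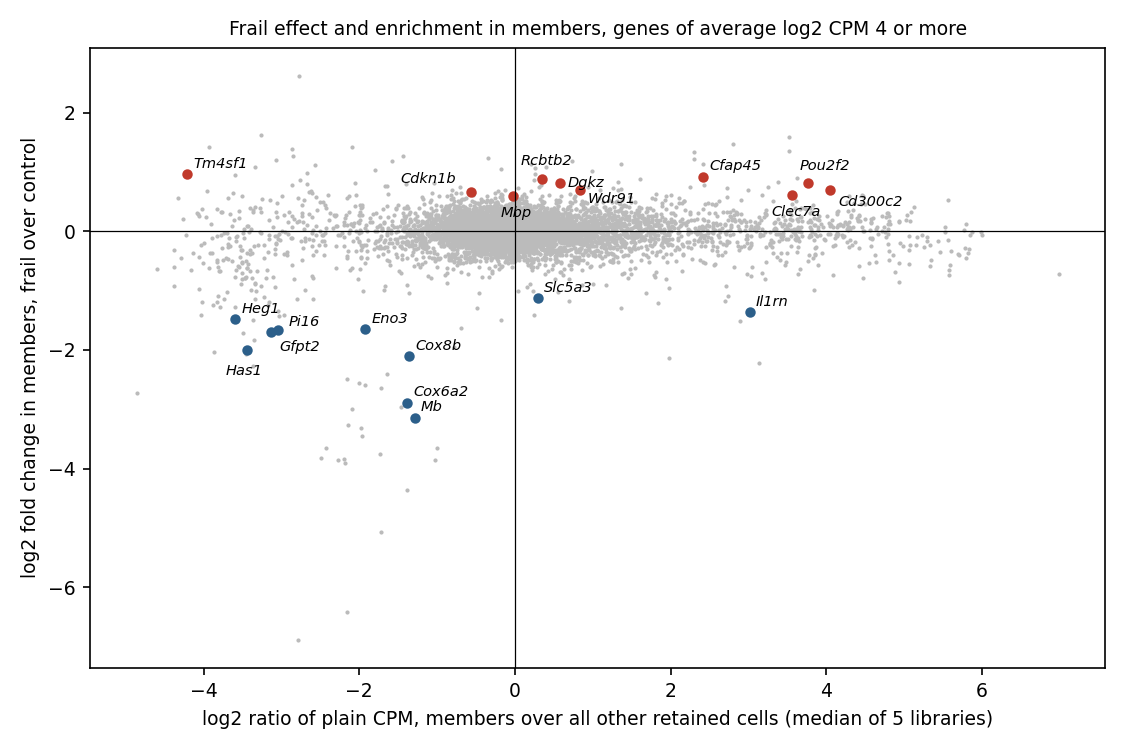
Fitted log2 fold change in members, frail over control (vertical), against the median log2 ratio of members over all other retained cells (horizontal), for tested genes with an average log2 CPM of at least 4; red and blue points are the 10 genes of smallest p in each direction. Il1rn lies at 3.02 on the horizontal axis, while Pi16, Gfpt2, Heg1 and Has1 lie near or below -3.05 and Mb and Cox6a2 at -1.29 and -1.38.

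None of the genes of the functional lists passed edgeR's adjusted threshold, and each list is given by its counts, beside a median log2 change of 0.01 over all genes, 51.6% of which had a fitted change above 0 and 48.4% below 0. All 7 MHC class II genes had a fitted change above 0 (median 0.26), but every one of the 7 overlapped between the groups. The groups did not overlap for 17.2% of all genes tested. The list summed to 39402 plain CPM in frail 1 and 26042 in frail 2, and to 29913, 25846 and 25500 in control members, so the highest sum was that of frail 1 and frail 2 lay among the controls. The direction rested on frail 1: without it 1 of the 7 had a change above 0 and the median was -0.15, and without frail 2 the median was 0.59. Cd74 stood at 18273 and 13107 plain CPM in frail members and at 14634, 12853 and 12506 in control members.

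Of 18 tested scavenger and lectin receptors, 12 had a change below 0 (median -0.15, and -0.32 to -0.09 without 1 library), but 6 of 18 in members without Lyve1 (median 0.12). Mgl2, a lectin, stood at 830 and 442 plain CPM in frail members and at 953, 740 and 809 in control members, and Clec10a at 423 and 494 in frail and at 705, 706 and 369 in control members. Of 12 complement genes beside C1q, 10 had a change below 0 (median -0.26, -0.13 without frail 1 and -0.56 without frail 2). C4b, a C4 gene of the classical pathway, stood at 420 and 429 plain CPM in frail members and at 669, 525 and 406 in control members, with overlapping groups.

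Of 11 genes of lipid-associated macrophages, 10 had a change above 0 (median 0.28, and 0.19 to 0.38 without 1 library). In 3 of the 11 both frail libraries were above every control library, which was so for 7.92% of all genes tested. Plin2, a coat protein of lipid droplets, stood at 508 and 721 plain CPM in frail members and at 369, 482 and 404 in control members (log2 0.55, SE 0.23, unadjusted p = 0.0351, edgeR adjusted p = 1.00). It was also higher in frail outside members. Other mononuclear phagocytes had 326 and 284 in frail and 161, 160 and 179 in control libraries. All other cells had 117 and 217 in frail and 76.5, 90.6 and 97.8 in control libraries. Apoe, a lipid carrier, stood at 13419 and 12187 plain CPM in frail members and at 15269, 13827 and 7637 in control members. Of the list's most abundant genes, Apoe, Plin2 and Lipa were above the rest, by a median log2 of 3.79, 2.105 and 0.957. Fabp4 and Lpl were below it, at -3.96 and -2.86. Fabp4 stood at 329 and 743 plain CPM in frail members and at 279, 430 and 273 in control members. Over all other cells it stood at 4973 and 15055 in frail and at 7695, 6719 and 2679.5 in control libraries. The part of other cells' transcripts in this list was not tested. Spp1, osteopontin, was found in 1.12% and 0.709% of frail and 0.909%, 0.493% and 0.498% of control members at 2000 UMIs, against 1.06% and 0.664% of Pdgfra cells in frail and 0.529%, 0.476% and 0.527% in control libraries, so it was near that background.

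The cytokine and chemokine list held 24 genes. For 6 of them both frail libraries were below every control library, against 9.32% of all genes tested. For 1 of them both were above, against 7.92% of all genes tested. That gene was Nfkbia, which encodes an inhibitor of NF-kB and is neither a cytokine nor a chemokine. Ccl6, a chemokine of macrophages, stood at 1918 and 2247 plain CPM in frail members and at 3789, 3777 and 2527 in control members (log2 -0.69, SE 0.28, unadjusted p = 0.0328, edgeR adjusted p = 1.00). Ccl9 stood at 694 plain CPM in frail 1 and 1028.5 in frail 2, and at 1530, 1870 and 1225 in control members (log2 -0.85, SE 0.28, unadjusted p = 0.0120, edgeR adjusted p = 1.00). Ccl8 ranged over libraries without regard to group, at 2390 and 284 plain CPM in frail members and at 2306, 816 and 750 in control members.

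Iron handling genes overlapped for 13 of 15 tested, where 17.2% of all genes tested did not overlap. Hmox1, which degrades haem, stood at 685 and 958 plain CPM in frail members and at 495, 921 and 731 in control members. Lysosomal genes were split evenly, with 11 of 22 above and 11 below 0, and 21 overlapped, beside the same 17.2% that did not. Without frail 1, 17 were above 0, and without frail 2, 7 were. Ctsb, cathepsin B, stood at 2157 and 3024 plain CPM in frail members and at 2766, 2834 and 2543 in control members. Among growth factors Igf1 stood at 220 and 401 in frail and at 292, 217 and 273 in control members.

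Immediate early genes, which are transcribed soon after a stimulus, had a change above 0 for 14 of 17 (median 0.25). Without frail 2 it was 9 of 17 with a median of 0.02, and without frail 1 the median was 0.43. In 3 of the 17 both frail libraries were above every control library, against 7.92% of all genes tested. Fos stood at 4642 and 5590 plain CPM in frail members and at 3308, 3567 and 4419.5 in control members, and over all other cells at 4758 and 4540 in frail and at 4382, 3997 and 4610 in control libraries. Interferon-response genes overlapped for 19 of 20, beside 17.2% of all genes tested that did not overlap, and 11 had a change above 0. Without frail 1 it was 0 of 20 (median -0.69), and without frail 2 it was 18 (median 0.67). Isg15 stood at 335 and 68.2 plain CPM in frail members and at 32.0, 97.4 and 143 in control members. Of 19 transcription factors, 14 had a change above 0 (median 0.20), and without frail 2 it was 12 with a median of 0.04. Maf, whose transcript was among those most like Lyve1, stood at 689 and 1127 in frail and at 1023, 1143 and 939.5 in control members.

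Of 9 tested genes of monocyte-derived cells, 8 had a change below 0 (median -0.42, and -0.19 without control 1). Chil3, a chitinase-like gene of monocytes, had 0 UMIs in both frail libraries, which allows up to 1.72 and 1.26 plain CPM, and stood at 5.25, 22.7 and 9.29 in control members (DESeq2 adjusted p = 0.0138, edgeR adjusted p = 1.00). Fn1, fibronectin, stood at 376 and 350 plain CPM in frail members and at 563, 464 and 442 in control members. The remaining lists lay near the median of all genes. A change above 0 was found for 13 of 20 genes of the macrophage core (median 0.04), 5 of 14 of efferocytosis with Anxa1 at 0.00 (-0.07), 7 of 15 growth factors (-0.01), 6 of 12 heat shock genes (-0.03), 6 of 13 cell cycle genes (-0.04) and 15 of 23 ribosomal protein genes (0.04). Leaving out 1 library turned the sign of each of these 6 medians for at least 1 choice of library.

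Gdf15, a stress cytokine named in the study's title, stood at 176 and 205 plain CPM in frail members and at 34.3, 37.5 and 143 in control members (log2 1.47, SE 0.69, unadjusted p = 0.0937, edgeR adjusted p = 1.00). In plain CPM both frail libraries lay above every control library, which was so for 7.92% of all genes tested. At 2000 UMIs it was found in 14.0% and 16.3% of frail and in 4.36%, 7.39% and 16.2% of control members. By this share control 3 was at the level of the frail libraries. Other mononuclear phagocytes had 20.7 and 9.88 plain CPM of Gdf15 in frail and 7.03, 6.41 and 3.91 in control libraries. All other cells had 24.4 and 14.9 in frail and 11.3, 12.6 and 11.6 in control libraries.

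Fits added after the data were seen took members with and without a Lyve1 UMI after thinning apart. edgeR called 0 of 10255 genes in those with Lyve1 (401 at an unadjusted p under 0.05) and 0 of 9425 in those without (354). Il1rn stood in cells without Lyve1 at 23.3 and 32.0 plain CPM in frail members and at 92.2, 115 and 74.8 in control libraries (log2 -1.77, SE 0.29, edgeR adjusted p = 0.110), and in cells with Lyve1 at 4.88 and 7.14 in frail and at 8.03, 17.0 and 12.99 in control libraries (log2 -1.04, SE 0.49, edgeR adjusted p = 1.00). For Clec7a the log2 change was 1.05 (SE 0.54) with Lyve1 and 0.16 (SE 0.21) without it. With Lyve1, frail 1 lay below every control library for this gene, at 19.5 plain CPM, and frail 2 above, at 98.2. For Cd300c2 the log2 change was 0.84 (SE 0.26) and 0.36 (SE 0.24), and for Pou2f2 0.66 (SE 0.27) and 0.89 (SE 0.22). The differences between these fits were not tested.

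The frail effect in members was compared with that in the other phagocytes of the same libraries. Of 9705 genes, 0 (0%) passed limma's test of the difference and 488 (5.03%) had an unadjusted p under 0.05. The count was 16 without control 3 and 4 without control 1. With all libraries, no gene can therefore be called particular to members in its difference between frail and control muscle.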

How the data were processed

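The deposited values are raw UMI counts of genes in barcodes, written by Cell Ranger 7.0.0 according to their headers. GRCm38 and Seurat 4.1.2 are named in the submitters' processing notes, without the steps they served. The barcode filter of the authors is not given in the sources. Depth is in UMIs: 68170531 to 90942121 per library. Gene positions come from GENCODE on GRCm38.

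From the counts, barcodes were retained and members chosen by the rule in the first paragraph. Members and gene lists were chosen with earlier results of these data known. UMI counts were summed over members per library, so that a library is the replicate, and compared by the quasi-likelihood F test of edgeR 4.0.16 (robust, with TMM factors and filterByExpr) in R 4.3.3, with Benjamini-Hochberg adjustment at 0.05. DESeq2 1.42.0 was the alternative. Fold changes are frail over control. The difference in frail effect between members and other phagocytes was tested with limma 3.58.1 on log2 CPM (prior count 2) within each library. Those other phagocytes also had under 10 UMIs of S100a8 and S100a9, and at most 2 of Cdh5, Pdgfra and Rgs5. Shares were compared by exact two-sided permutation over the 10 ways of choosing 2 of 5 libraries. Cells were thinned to 2000 UMIs for shares with a UMI and for correlations. Doublets were marked with Scrublet in scanpy 1.11.5 and kept in the main sums. Limits on counts of 0 rest on 3 counts per library.

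Named genes are the rule genes, 7 genes of macrophage subsets, the 15 highest over the rest, the 10 of smallest p in each direction with average log2 CPM of at least 4 and groups that do not overlap, the most abundant genes of each list, Gdf15, and the 5 most like Lyve1 and H2-Ab1. A gene that this rule picks is not reported here. Scripts were tested on simulated counts. Alternatives were another normalization, no filter, left-out libraries, stricter cell rules and other depths.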

Additional observations from a re-analysis of the deposited data

Results flagged for a closer look

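Barcodes that met the gene conditions of the rule but had over 10% mitochondrial UMIs were outside the comparisons. They made up 11.9% (95% Wilson interval 8.27 to 16.9) of all barcodes that met those conditions in frail 1 and 6.03% (3.90 to 9.23) in frail 2, and 8.20%, 5.02% and 7.46% in control 1 to 3. Frail 1 was above the highest control library, with overlapping intervals, and frail 2 was among the controls. Retaining at most 5% mitochondrial UMIs gave a difference in the share of members of -1.82 percentage points.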

How the results depend on the processing

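The count of genes called in members was 0 with edgeR and stayed at 0 with DESeq2 size factors, without Scrublet doublets, with 10 C1q UMIs, with 3 resident genes, at 5% mitochondrial UMIs and in members with or without Lyve1. It was 21 with DESeq2, 82 with no filter on low counts, and 2 with 0 UMIs of Cdh5, Pdgfra and Rgs5 (Mb and Cox6a2). Leaving out 1 library gave 0 to 23, with 23 without control 2 (1 higher, 22 lower) and 7 without frail 1. For the difference between members and other phagocytes the count was 0 with a prior count of 0.5 and with no filter, and leaving out 1 library gave 0 to 16, with 16 without control 3 and 4 without control 1. With a replicate block the counts were 21 in members (2 higher, 19 lower) and 32 for the difference, and Gdf15 had an edgeR adjusted p of 0.00689 there. With group means removed, same-numbered libraries correlated at 0.02 and 0.15 over the tested genes. These values cannot decide whether the numbers pair the libraries, since they average over all genes. Frail 1 and control 1 stood together for S100a8, at 208 and 144 plain CPM against 1.67 to 9.29 in the others. Ccl8 was at 2390 and 2306 in them against 284 to 816, while Isg15 differed between them, at 335 and 32.0.

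The share of members stayed lower in frail under each alternative run, with differences of -2.32 to -0.945 percentage points under other cell rules or denominators of all barcodes, -2.91 to -1.47 without 1 library and -12.5 as a share of phagocytes. For H2-Ab1 the difference in detection was -0.76 percentage points, 3.96 at 1000 UMIs, and -9.80 to 8.28 without 1 library. For Mki67 it was -0.81 to 0.166 without 1 library, and for Trem2 it was 3.32, and -0.158 without thinning. For Lyve1 it was -14.4 to -9.19 at other depths and -14.2 to -11.9 without 1 library. Of 400 values for 25 named genes, 1 changed sign: Folr2 was at 0.0462 on the log2 scale in members without Lyve1. In all 25 both frail libraries lay on 1 side of every control library, for most because they were chosen so. The count therefore cannot show that signs are stable. The causes were not tested. With 2 frail libraries, the exact test cannot give a p under 0.1.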
